A study of Rattus norvegicus with 20 samples.

Results

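The extracellular matrix is the protein scaffold around cells, and integrins are the receptors that hold cells to it. The genes described here encode several kinds of product in that system: fibrillar, basement membrane and other collagens, laminins, elastic fibre proteins, proteoglycans, adhesive glycoproteins, a cross-linking oxidase, ADAMTS and ADAMTS-like proteins, and integrin α, β and leukocyte subunits. Members were matched by gene symbol (collagen, laminin, integrin, ADAMTS and LOX names, plus a short list of single matrix genes). The match itself used no measured value, but the members were chosen with earlier results of these data known. The rule found 42 of the 41012 probes on the array, for 34 of the 8963 genes that could be named, and all 34 passed the filter on dim probes. Of the symbols in the reference annotation, 131 match the rule, and those not named on a probe were not analysed here; Col1a1, Col4a1, Col4a2, Itga6, Lox, Tnc and Postn are among them. The member Itgb3bp matches only by name and encodes a centromere protein.

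Total RNA was measured in carcinomas and in normal tissue of the mammary gland, taken from female Jcl:SD (Sprague-Dawley) rats. At 7 weeks of age the rats received 4 Gy of Cs-137 gamma rays to the whole body, and they were then followed for up to 30 weeks on an unchanged diet. Obesity prone (OP) and obesity resistant (OR) rats ate a diet with 45 kcal% fat and were separated by body weight at irradiation, while lean control (LC) rats ate a diet with 10 kcal% fat. There were 6 OP, 3 OR and 3 LC carcinomas, and 3 OP, 2 OR and 3 LC normal tissues. The carcinomas were adenocarcinomas picked for even histology with no necrosis and little infiltration, which limits how far they stand for all tumours of these rats, and the normal tissues came from rats of matched age. All 6 groups are described as irradiated in the treatment text, so no unirradiated tissue stands among them. Whether each tissue is from a different rat is not stated sample by sample, so the p-values cover only variation among the samples given, part of which may be technical.

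Collagens I, III and V are made mainly by fibroblasts and assemble into fibrils, which decorin, lumican, biglycan and fibromodulin bind and space, and which lysyl oxidases cross-link. The basement membrane beneath mammary epithelium is built from laminins and collagen IV, and epithelial cells anchor to it through integrins such as α6β4, whereas α1β1 binds collagen and α7β1 binds laminin in muscle. Integrin β6 pairs with αv in epithelium, binds fibronectin and the latent form of TGF-β, and the leukocyte subunits αL, αM, αD and αE are found on immune cells.

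Each array holds 1 sample labelled with Cy3, and levels are given as log2 of background-corrected, quantile-normalized spot intensity, which compares samples for 1 probe and not 1 gene with another. The share of probes well above background was 61.3 to 79.3% in the cancers and 87.7 to 97.7% in the normal tissues, and the number of arrays limits the precision. The arrays lie on 5 slides: slides 1 to 3 hold cancers beside normal tissue, slide 4 holds OP cancers 3 to 6 alone, and slide 5 holds 2 OR and 2 LC cancers. The only cancer on slide 2 is OP cancer 2, and on slide 3 OR cancer 1. Differences within those slides set 1 cancer against normal tissues of all 3 obesity groups. Slides 4 and 5 were scanned on 1 day and slides 1 to 3 on another. OP cancer 6 stood apart, with the highest level of the 12 cancers for 15 of the 34 members. Its mean log2 level over 7 skeletal muscle genes was 11.12, against 7.30 to 9.60 in the other 11 cancers, and over 12 fibroblast genes 11.14, against 9.78 to 10.74. Among the normal tissues LC normal 1 was highest for 16 members and LC normal 3 lowest for 18, and the mean of 10 T and NK cell genes was 11.23 in LC normal 3 against 7.79 to 8.36 in the other 7.

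Promoter sequence was matched by symbol in the RefSeq table (build GRCr8) for 21 of the 34 members. The windows have a length of 300 bases and run past the annotated start into the transcript. Shown are Col1a2 and Col5a3, which fell in the cancers, and Adamts1, which rose in them; these 3 were picked because motifs were found in them. Capitals mark 3 kinds of element, searched for on both strands, so that a reverse complement is marked too. The letters TATAAA are the TATA element of core promoters. The upstream element spelled CCAAT is marked where it was found. A GC box is spelled here as GGGCGG and is bound by Sp1 and related factors.
Col1a2 chr4:33518307-33518606, plus strand: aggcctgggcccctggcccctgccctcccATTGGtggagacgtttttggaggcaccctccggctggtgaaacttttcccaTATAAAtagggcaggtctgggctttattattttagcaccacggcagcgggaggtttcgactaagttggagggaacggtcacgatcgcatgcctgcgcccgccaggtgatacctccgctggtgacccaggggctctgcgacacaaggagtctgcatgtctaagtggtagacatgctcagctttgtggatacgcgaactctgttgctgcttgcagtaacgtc
Col5a3 chr8:27625899-27626198, minus strand: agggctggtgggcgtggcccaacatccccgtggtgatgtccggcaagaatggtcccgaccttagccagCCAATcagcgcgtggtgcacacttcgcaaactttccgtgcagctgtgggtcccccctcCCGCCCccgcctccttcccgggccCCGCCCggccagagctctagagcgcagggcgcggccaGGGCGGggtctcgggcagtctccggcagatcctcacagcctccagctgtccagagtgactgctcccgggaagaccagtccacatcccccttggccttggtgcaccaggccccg
Adamts1 chr11:38427335-38427634, minus strand: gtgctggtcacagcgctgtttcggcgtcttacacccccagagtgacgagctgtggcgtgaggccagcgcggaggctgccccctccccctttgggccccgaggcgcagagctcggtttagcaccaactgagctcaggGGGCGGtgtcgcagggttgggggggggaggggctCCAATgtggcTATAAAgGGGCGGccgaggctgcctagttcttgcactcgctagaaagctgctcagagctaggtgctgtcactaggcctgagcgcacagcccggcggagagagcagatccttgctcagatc
The first element was found in 3 of the 21 member promoters (Adamts1, Adamts7 and Col1a2), against 14.2% of all 33469 promoters in the table. The second was found in 8, against 37.5% of all promoters, and a GC box in 9, against 33.1%. The AP-1 letters TGANTCA were found in 1 member promoter, that of Lama3, against 7.33% of all promoters. Each match is only of letters within a window, and no binding was measured.

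The first comparison set the 12 carcinomas against the 8 normal tissues, with the 3 obesity groups weighted equally in each tissue. Of the 34 members, 25 (73.5%) passed an adjusted p of 0.05 in limma with Benjamini-Hochberg adjustment over 36043 genes, and across all of these genes 62.4% did. Of the 36043 only 8662 carry a symbol. The rest are counted by accession, so shares and medians of all genes include many unnamed entries, while all members are named. Among members 15 were lower and 10 higher in the cancers (33.5% and 29% of all genes), with a median log2 difference of -0.45 against -0.03 over all genes tested. The lower members included 4 of the 5 fibrillar collagens, the matrix proteins Fbn1, Fn1, Sparc and Dcn, and the collagen and laminin receptor subunits Itga1, Itga7 and Itgb1. The higher members were Col2a1, Adamts1, Itgb6, Itgb4, Itgb3, Lama3, Eln, Thbs1, Itgal and Itgb3bp, of which Eln, Itgal, Itgb3 and Thbs1 turned below 0 under 75th-percentile scaling. This split depends on the scaling: the median of all genes moved to -1.51 with each array scaled to the 75th percentile of its processed signal, and there 6 members were higher and 21 lower (14.3% and 66.5% of all genes). Measured against the median of all genes, 13 members lay above it in quantile-normalized values and 19 in these 75th-percentile values. The count was 16 when normexp-corrected signal was scaled to the 75th percentile. In the authors' value table, which covers fewer genes, it was 9 of the 29 members measured. With slide as a block 7 were higher and 15 lower (25.7% and 27.8% of all genes), and with scan day as a block 6 and 14 (26% and 28.3%). Without OP cancer 6, 27 members were called, 10 higher and 17 lower, against 63.2% of all genes.

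**Figure D1:**
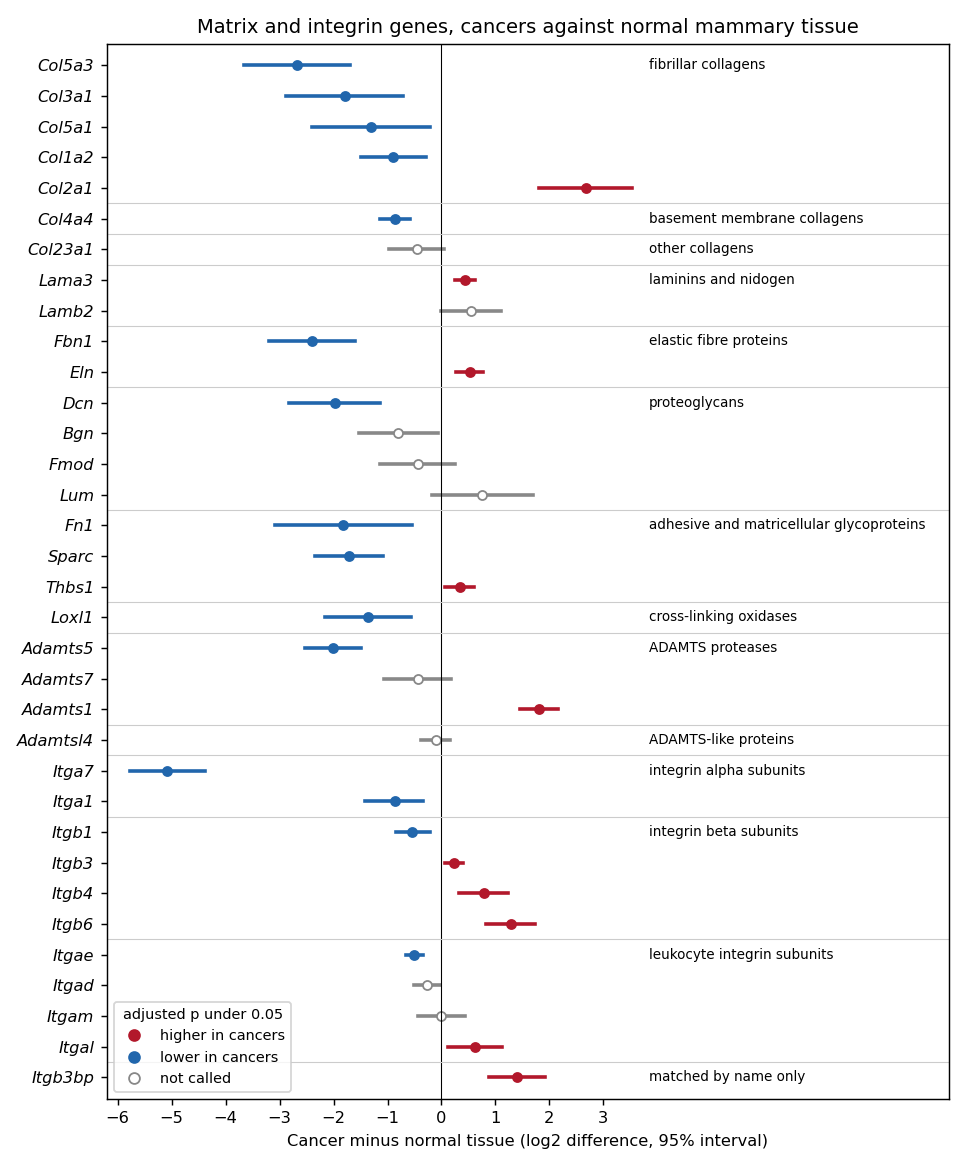
Log2 difference between cancers and normal tissue for the 34 genes, grouped by role; points are the fitted differences and lines their 95% intervals. Filled points passed an adjusted p of 0.05 (red higher, blue lower in the cancers); Itga7 lies farthest left at -5.08 and Col2a1 farthest right at 2.67, while Eln, Itgal, Itgb3 and Thbs1 turn below 0 under 75th-percentile scaling.

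Fibrillar collagens were lower in the cancers except for Col2a1. Col3a1, a collagen of loose connective tissue, had log2 levels of 12.98 to 17.37 in the 12 cancers (median 14.85) and 15.92 to 17.60 in the 8 normal tissues (median 16.68). OP cancer 6, at 17.37, and LC cancer 3, at 16.18, reached the range of the normal tissues, and the other 10 cancers were below every normal tissue. Col3a1 fell by 1.79 on the log2 scale (SE 0.512, 3.47-fold, limma adjusted p = 0.00606); within slides 1, 2 and 3 the differences were -3.23, -0.93 and -1.11, and with slide as a block the adjusted p was 0.0877. Col5a3, a chain of collagen V, ran from 9.21 to 12.44 in the cancers (median 10.26) and from 11.78 to 14.67 in normal tissue (median 13.00), so that OP cancer 6 alone overlapped. It fell by 2.68 (SE 0.462, 6.39-fold, limma adjusted p = 1.07e-04), with -4.27, -1.94 and -2.12 within the 3 slides.

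Col1a2, a chain of collagen I, had levels of 15.68 to 17.63 in the cancers (median 16.59) and 16.58 to 18.16 in normal tissue (median 17.73). The ranges overlapped widely, and the difference was -0.90 (SE 0.286, limma adjusted p = 0.0118); a second Col1a2 probe differed by -0.71 (adjusted p over probes = 0.221), and the mean of both probes gave an adjusted p of 0.0789. Col5a1 lay between 9.10 and 13.09 in the cancers (median 10.58) and between 10.59 and 13.72 in normal tissue (median 12.30). Its difference of -1.30 (SE 0.515, limma adjusted p = 0.0367) lay close to the threshold. The adjusted p was between 0.0504 and 0.0961 in 10 of the 20 fits that left out 1 array, which were those without OP cancer 5, OR cancers 1 and 2, LC cancers 1 and 2, OP normals 1 and 3, OR normals 1 and 2, and LC normal 1. With slide as a block the difference was larger, -1.92, with a limma adjusted p of 0.0579, and under 75th-percentile scaling it was -1.11 (adjusted p = 0.0533). Its second probe differed by -0.68 (adjusted p over probes = 0.225).

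Col2a1, the collagen of cartilage, went the other way on its brighter probe. Cancer levels ran from 10.87 to 13.89 (median 12.64) and normal levels from 8.53 to 10.98 (median 10.03). Only OP cancer 4, at 10.87, fell below the highest normal tissue. The rise was 2.67 (SE 0.412, 6.37-fold, limma adjusted p = 3.67e-05), with 3.03, 2.98 and 3.29 within slides 1 to 3. The second Col2a1 probe, near the bottom of the scale with means of 7.24 in cancers and 7.85 in normal tissue, differed by -0.61 (SE 0.160, limma adjusted p over probes = 0.00334), so the 2 probes disagree in sign and the gene's direction is unsettled. Col4a4, a basement membrane collagen chain, was 6.81 to 7.32 in the cancers (median 7.06) and 7.51 to 8.61 in normal tissue (median 7.94), with no overlap, and fell by 0.86 (SE 0.133, limma adjusted p = 3.69e-05); under 75th-percentile scaling the difference was -2.56. Col23a1, a transmembrane collagen, differed by -0.46 (limma adjusted p = 0.105), and without OR cancer 3 by -0.60 (adjusted p = 0.0283). Blocking by slide gave Col23a1 a limma adjusted p of 0.0142, and blocking by scan day gave -0.90 and 0.0136. Under 75th-percentile scaling the difference was -1.72 (limma adjusted p = 0.00105), where the median of all genes was -1.51. Its second probe differed by -0.34 (limma adjusted p over probes = 0.0224).

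**Figure D2:**
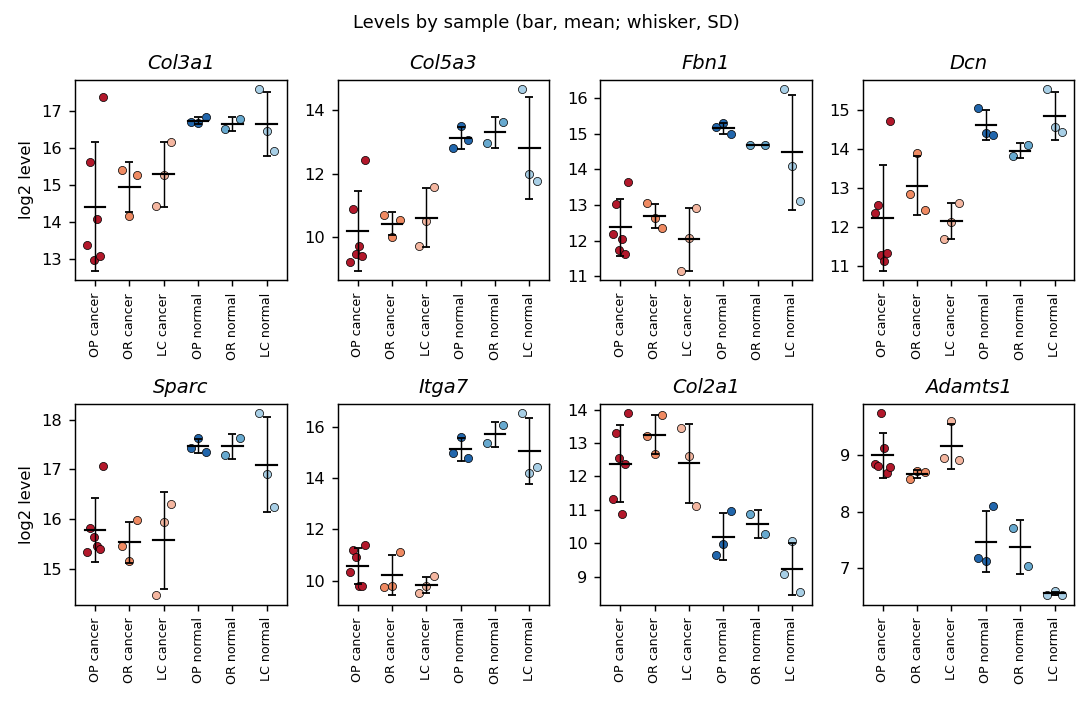
Log2 levels on each array for 8 of the genes in the 6 groups (red shades cancers, blue shades normal tissues; bar, group mean; whisker, SD). OP cancer 6 is the highest cancer for Col3a1, Col5a3, Fbn1, Dcn, Sparc and Itga7, and the cancers and normal tissues do not overlap for Itga7 and Adamts1.

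Both elastic fibre genes passed the test, in opposite directions. Fbn1, the microfibril protein fibrillin-1, had cancer levels of 11.15 to 13.66 (median 12.28) and normal levels of 13.11 to 16.26 (median 14.84), and only OP cancer 6 exceeded the lowest normal tissue, LC normal 3. It fell by 2.40 (SE 0.375, 5.29-fold, limma adjusted p = 4.13e-05), and its second probe by 1.82. Eln, elastin, was 6.77 to 7.96 in the cancers (median 7.43) and 6.71 to 7.56 in normal tissue (median 6.91). The difference was 0.52 (SE 0.118, limma adjusted p = 0.00121), but it was -0.60 under 75th-percentile scaling and -0.58 in the authors' value table, so elastin's direction rests on the scaling.

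Of the 4 small leucine-rich proteoglycans decorin alone passed the test in quantile-normalized values, and biglycan passed it too under the other scalings. Dcn had cancer levels of 11.14 to 14.72 (median 12.40) against 13.82 to 15.53 in normal tissue (median 14.41), with OP cancer 6 and OR cancer 2 inside the normal range. It fell by 1.98 (SE 0.402, 3.95-fold, limma adjusted p = 4.52e-04), with -3.27, -1.70 and -1.43 within the 3 slides. Biglycan (Bgn) differed by -0.80 (limma adjusted p = 0.0521) and passed the threshold without OP cancer 2, OP cancer 6, LC cancer 3 or LC normal 2, with adjusted p of 0.0494, 0.00406, 0.0358 and 0.0393. Under 75th-percentile scaling the Bgn difference was -0.98 (limma adjusted p = 0.00489), and in the authors' deposited value table it was -0.97 (adjusted p = 0.00579). With slide as a block its limma adjusted p was 0.221, and with scan day as a block 0.153. Within slides 1 to 3 Bgn differed by -1.67, -0.32 and -0.04. Fmod differed by -0.44 (adjusted p = 0.259; without LC cancer 3 -0.68, adjusted p = 0.0445) and Lum by 0.76 (adjusted p = 0.144); for Lum OP cancer 6, at 11.86, was the highest of all 20 arrays.

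Among adhesive and matricellular glycoproteins, fibronectin and SPARC fell. Fn1, which links collagen and integrins, ran from 11.10 to 16.45 in the cancers (median 13.22), the widest spread among the lower members (SD 1.47, n = 12), and from 14.06 to 16.79 in normal tissue (median 15.13). LC cancer 3 held the 16.45 and LC cancer 1 the 11.10, so the extremes came from 1 obesity group. The fall was 1.82 (SE 0.602, 3.52-fold, limma adjusted p = 0.015), and a second probe differed by -1.20 (adjusted p over probes = 0.103). With slide as a block the Fn1 difference was -2.57 (limma adjusted p = 0.0298). Sparc, a collagen-binding protein, was 14.47 to 17.06 in the cancers (median 15.56) and 16.25 to 18.13 in normal tissue (median 17.39); OP cancer 6 and LC cancer 3 alone reached the normal range. It fell by 1.71 (SE 0.294, 3.28-fold, limma adjusted p = 1.02e-04). Thbs1, thrombospondin-1, which binds matrix and latent TGF-β, differed by 0.34 (SE 0.124, limma adjusted p = 0.0271) at low levels of 6.56 to 7.57, but by -1.11 under 75th-percentile scaling. The adjusted p of Thbs1 was 0.149 with slide as a block, and it was above 0.05 without OR cancer 3, OP normal 1, OP normal 2 or OR normal 2. Loxl1, which cross-links elastin, fell by 1.36 (SE 0.377, limma adjusted p = 0.00495) from normal levels of 14.23 to 15.98 (median 14.64) to cancer levels of 12.23 to 15.16 (median 13.24); its second probe differed by -0.81 (adjusted p over probes = 0.0543).

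The 3 ADAMTS proteases did not move together. Adamts1, which cleaves versican and other proteoglycans, was 8.58 to 9.74 in the cancers (median 8.82) and 6.53 to 8.09 in normal tissue (median 7.08), with no overlap. It rose by 1.81 (SE 0.165, 3.50-fold, limma adjusted p = 1.99e-07), by 1.69 with slide as a block and by 1.86 under 75th-percentile scaling. Adamts5, an aggrecanase, was 7.17 to 8.79 in the cancers (median 7.76) and 8.68 to 10.58 in normal tissue (median 9.81), and OP cancer 6 alone overlapped; it fell by 2.01 (SE 0.244, 4.02-fold, limma adjusted p = 3.67e-06). Adamts7 differed by -0.44 (adjusted p = 0.206; without OP cancer 6 -0.56, adjusted p = 0.0156) and Adamtsl4, an ADAMTS-like microfibril protein, by -0.11 (adjusted p = 0.456). With slide as a block Adamtsl4 differed by -0.39 (limma adjusted p = 0.00637), and under 75th-percentile scaling by -1.61 (adjusted p = 1.1e-05), close to the median of all genes there, -1.51; Adamts5 was at -2.75 on that scale. The 4 members Itga7, Adamts1, Col4a4 and Itgae had no overlap between the 12 cancers and 8 normal tissues, as did 20.2% of all genes tested.

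Among integrin subunits outside the leukocyte group, Itga7, Itga1 and Itgb1 were lower in the cancers, and Itgb6, Itgb4 and Itgb3 were higher, although Itgb3 turned below 0 under 75th-percentile scaling. Itga7, the laminin-binding α7 subunit, showed the largest difference of any member. Its levels in the OP cancers were 10.33, 11.21, 10.94, 9.80, 9.81 and 11.40, in the OR cancers 9.74, 9.78 and 11.11, and in the LC cancers 9.52, 9.81 and 10.17. In normal tissue they were 14.96, 15.60 and 14.77 in OP, 15.36 and 16.05 in OR, and 16.52, 14.19 and 14.42 in LC rats. The lowest normal tissue, at 14.19, was thus above the highest cancer, OP cancer 6 at 11.40. Itga7 fell by 5.08 (SE 0.328, 33.7-fold, limma adjusted p = 6.27e-09), with -5.81, -3.84 and -5.34 within slides 1 to 3, and its dimmer second probe differed by -2.54. Itga1, the collagen-binding α1 subunit, differed by -0.87 (SE 0.255, limma adjusted p = 0.00686), with ranges of 12.24 to 13.72 and 12.15 to 14.54 that overlapped; within slide 2 the difference was 0.18, and with scan day as a block the adjusted p was 0.0524. Itgb1, the β partner of both, was 9.45 to 11.05 in the cancers (median 10.15) and 9.58 to 11.14 in normal tissue (median 10.70). It fell by 0.54 (SE 0.150, limma adjusted p = 0.00523), but the adjusted p was 0.0599 under 75th-percentile scaling and 0.109 with scan day as a block.

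Itgb6 was 10.89 to 12.27 in the cancers (median 11.60) and 8.20 to 11.42 in normal tissue (median 10.80). It rose by 1.28 (SE 0.214, 2.43-fold, limma adjusted p = 7.67e-05). Itgb4, the β4 subunit of the hemidesmosome, the junction that fixes epithelium to its basement membrane, was 14.19 to 16.11 in the cancers (median 15.43) and 13.27 to 15.31 in normal tissue (median 14.98). The difference was 0.78 (SE 0.217, limma adjusted p = 0.00505), and 0.30 (adjusted p = 0.325) with slide as a block; blocking by scan day gave 0.41 (adjusted p = 0.191). Lama3, a chain of laminin-332, the ligand of that junction, differed by 0.43 (SE 0.0885, limma adjusted p = 4.62e-04), and by 0.13 (adjusted p = 0.51) under 75th-percentile scaling. Lamb2 differed by 0.55 (adjusted p = 0.0805), and without LC normal 1 by 0.81 (adjusted p = 2.71e-04). With slide as a block it was 0.11 (limma adjusted p = 0.811), within slides 1 to 3 it was -0.47, -0.28 and 1.10, and under 75th-percentile scaling 0.59 (adjusted p = 0.0392). All 3 LC normal tissues were below the other 17 arrays for Itgb6 and Lama3, whereas for Itgb4 and Lamb2 this held for LC normals 2 and 3; LC normal 1 had the highest Lamb2 level of the normal tissues, 13.05. Itgb3, the β3 subunit of platelets and osteoclasts, was well above background on 2 of 12 cancer and 4 of 8 normal arrays, with a difference of 0.24 (limma adjusted p = 0.0145) that became -1.65 under 75th-percentile scaling; without OR normal 1 the adjusted p was 0.0595.

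Leukocyte integrin subunits were near the bottom of the scale. Itgae, the αE subunit of epithelial T cells, was 6.53 to 6.78 in the cancers and well above background on 3 of the 12, none of them LC cancers, against 6.93 to 7.56 on all 8 normal arrays; the difference was -0.50 (SE 0.0712, limma adjusted p = 1.72e-05). Its size is not settled, since most cancer arrays were not well above background: it was -3.53 and -1.47 under the processed and the normexp 75th-percentile scalings. In LC no cancer array was well above background, and mean Itgae levels were 6.63 in the cancers and 7.27 in normal tissue. The 1.56-fold distance is that between the measured means and is no detection bound. Itgal, the αL subunit of T cells, differed by 0.62 (SE 0.235, limma adjusted p = 0.0295), with OP cancer 6 at 8.64 and LC normal 3 at 7.81 the highest of their tissues; the adjusted p was 0.293 with slide as a block and the difference -0.26 under 75th-percentile scaling. Without OR cancer 2, LC cancer 1, OR normal 1, OR normal 2, LC normal 1 or LC normal 2, the adjusted p of Itgal was 0.0513 to 0.062. Those 2 arrays also had the highest T and NK cell means of their tissues, 9.84 and 11.23, and the part of these cells in the result was not tested. Itgam, the αM subunit of macrophages and neutrophils, differed by 0.00 (adjusted p = 0.99), and by -1.56 under 75th-percentile scaling. Itgad differed by -0.26 (adjusted p = 0.0593; 0.0483 without OR cancer 2 and 0.00603 without LC normal 2). Under 75th-percentile scaling Itgad differed by -2.03 (limma adjusted p = 4.05e-08), where the median of all genes was -1.51. Itgb3bp, the centromere protein, rose by 1.40 (SE 0.243, limma adjusted p = 1.17e-04). All 9 listed proliferation genes were called higher, against 29% of all genes. Under 75th-percentile scaling 8 of them were, against 14.3% of all genes. The part of cell division in the Itgb3bp result was not tested.

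Within the obesity groups taken one at a time, 16 members were called in OP, against 44.6% of all genes, with 4 higher and 12 lower (21.2% and 23.4% of all genes). In OR 9 were called, against 28.4% of all genes, with 3 higher and 6 lower (13.9% and 14.5%). In LC 17 were called, against 43.6% of all genes, with 8 higher and 9 lower (19.9% and 23.7%). A set of 8 was called in the same direction in all 3, against 21.2% of all genes: Adamts1 and Col2a1 higher, the latter on its brighter probe alone, and Adamts5, Col4a4, Col5a3, Itga7, Itgae and Sparc lower. Itgb3, counted as higher in LC, was not well above background on any LC array. The OP count was 10 without OP normal 1, against 35.9% of all genes. The OR count was 5 without OR cancer 2, 4 without OR normal 1 and 1 without OR normal 2, against 23.4%, 17.6% and 9.95% of all genes; each of the last 2 fits leaves a lone OR normal tissue that is assumed to vary like the other groups. Itga7 differed by -4.53 in OP, -5.49 in OR and -5.21 in LC. Adamts1 differed by 1.53, 1.30 and 2.60. Dcn differed by -2.37 in OP and -2.69 in LC, both called, and by -0.89 in OR (limma adjusted p = 0.422). For Itgb6 the differences were 0.70, 0.46 and 2.68, and for Itgb4 0.08, 0.34 and 1.92; both were called in LC alone, and whether the groups differ was tested by the interactions given at the end.

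**Figure D3:**
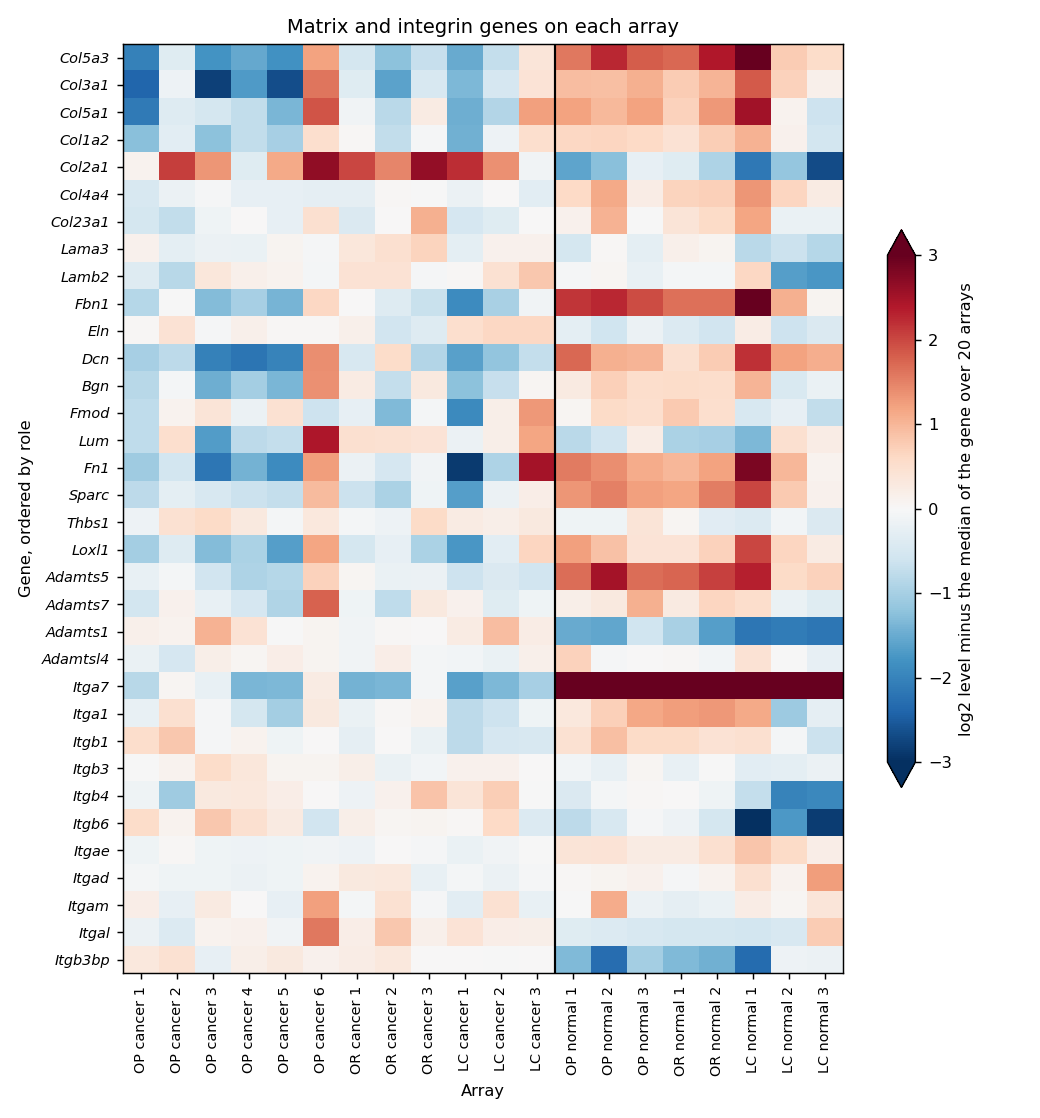
Log2 level of each gene on each array minus the gene's median over the 20 arrays, with genes ordered by role and a black line between cancers and normal tissues; the colour scale stops at 3 in either direction. Itga7 is at the top of the scale on all 8 normal arrays, OP cancer 6 is red for the fibrillar collagens, Dcn, Bgn and Lum and blue for Fmod, and LC normal arrays are blue for Itgb6 and Itgb4.

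Other genes of the system were described from fixed lists by the same test. Across all genes tested 29% were higher and 33.5% lower in the cancers, and 14.3% and 66.5% under 75th-percentile scaling. Of 15 collagen-processing genes, 8 were higher and 2 lower in the cancers, with a median log2 difference of 0.41. The prolyl hydroxylase P3h2 rose by 1.01 and the lysyl hydroxylase Plod1 by 0.81 (limma adjusted p = 6.54e-07 and 1.99e-04), while Fkbp14, a collagen-folding isomerase, fell by 0.80 and Pcolce, the procollagen C-proteinase enhancer, by 1.96. More genes of this list were thus higher than lower, the reverse of the fibrillar collagens; under 75th-percentile scaling 7 were higher and 3 lower, and P3h2 was at 0.37 (adjusted p = 0.137). Of 29 other matrix proteins, 6 were higher and 14 lower (median -0.56), and 5 and 19 under 75th-percentile scaling. Ccn5, a matricellular growth regulator, fell by 3.16, Has1, a hyaluronan synthase, by 1.32 and Bcan, a lectican proteoglycan, by 1.43; Has2, a related synthase, rose by 1.89 and Spp1, osteopontin, an integrin ligand, by 3.05.

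Of 22 genes of the integrin adhesion complex, 8 were higher and 5 lower (median 0.19), and 8 and 8 under 75th-percentile scaling. The scaffold Bcar1 rose by 1.31, the adaptor Crk by 0.52 but turned to -0.71 under that scaling, and the caveolar protein Cav1 fell by 0.78. Of 12 other matrix receptors, 3 were higher and 4 lower (median -0.02): the syndecans Sdc1 and Sdc4 rose by 1.36 and 1.39, while Cd36, a fatty acid and thrombospondin receptor, fell by 2.44 and Cspg4, a pericyte proteoglycan, by 2.60. Of 13 genes of the TGF-β axis, which drives matrix production, 5 were higher and 5 lower (median 0.02; 3 and 6 under 75th-percentile scaling), with Smad2 at 1.40, Inhba at 1.87 and Acvrl1, an endothelial receptor, at -2.61. The ligand Tgfb1 differed by 0.49 (limma adjusted p = 0.0512). For comparison, 29% of all 36043 genes were higher and 33.5% lower, with a median of -0.03. Under 75th-percentile scaling 14.3% were higher and 66.5% lower. No list was tested against these shares.

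Markers of cell types were described in the same way, beside 29% of all genes higher and 33.5% lower in the cancers. Under 75th-percentile scaling these shares were 14.3% and 66.5%. Of 12 fibroblast genes, 10 were lower in the cancers, with Gsn at -2.42, Cxcl12 at -1.83 and Prrx1 at -1.68, and the mean log2 level of the list was 9.78 to 11.14 in the cancers and 11.21 to 12.14 in normal tissue. All 11 adipocyte genes were lower, with means of 7.41 to 7.99 against 11.78 to 12.71 and Adipoq at -8.26. All 11 luminal epithelial genes were higher (12.19 to 13.04 against 9.58 to 11.60), among them Krt8 at 2.33. Of 7 pericyte and smooth muscle genes 5 were lower, of 6 endothelial genes 5 were lower and 1 higher, and of 6 Schwann cell genes 4 were lower. Of 8 macrophage genes 4 were lower, of 10 T and NK cell genes 1 was higher and 1 lower, and of 7 skeletal muscle genes 1 was lower. Under 75th-percentile scaling the fibroblast and adipocyte counts were the same and 9 luminal genes were higher, while 4 T and NK cell genes and 4 skeletal muscle genes were lower. Of 7 myoepithelial and basal genes 2 were higher, Krt5 by 2.41 and Krt15 by 1.60, and 2 lower. In these bulk samples fewer cells of a type and less RNA per cell cannot be told apart, and the part of cell composition in the matrix and integrin differences was not tested.

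The next comparisons asked whether matrix and integrin genes differ between carcinomas of the obesity groups, fitted on the 12 cancers alone. No member was called between OP and OR, OP and LC, or OR and LC cancers by limma, and no gene of the 36043 was. At an unadjusted p under 0.05 there were 2 members in each, against 10.9%, 7.21% and 4.19% of all genes. OP cancers against the mean of the OR and LC groups gave 0 members called and 3 at an unadjusted p under 0.05, against 11.4% of all genes. Fibrillar collagens were not among these: within the OP cancers alone Col3a1 ran from 12.98 to 17.37 and Col5a3 from 9.21 to 12.44.

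Itgb1 came nearest. Its levels were 10.75, 11.05, 10.20, 10.34, 10.09 and 10.23 in the OP cancers, 9.97, 10.23 and 10.02 in the OR cancers and 9.45, 9.72 and 9.76 in the LC cancers. Every OP cancer was above every LC cancer, and the OR cancers overlapped the OP cancers. The OP minus LC difference was 0.80 (SE 0.195, limma adjusted p = 0.276) and the OP minus OR difference 0.37 (interval -0.06 to 0.80, adjusted p = 0.51). Against OR and LC together the OP difference was 0.59 (SE 0.159, adjusted p = 0.237), and without slide 4, a choice made after seeing the data that leaves 2 OP cancers, it was 1.04 with an adjusted p of 0.00832. Of the 6 OP cancers, 4 lie on slide 4, which holds no other group; on slide 1, OP cancer 1 was at 10.75 and LC cancer 1 at 9.45.

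Lama3 was lower in OP than in OR cancers by 0.57 (SE 0.129, limma adjusted p = 0.363), with 7.93 to 8.35 in OP and 8.55, 8.69 and 8.88 in OR; with slide as a block the difference was -0.01. Eln in OR cancers was 7.49, 6.77 and 6.94, below 7.83, 7.95 and 7.96 in LC cancers; the difference of -0.85 (SE 0.170) had an unadjusted p of 3.96e-04 and an adjusted p of 0.998. In OP cancers Eln was 7.30 to 7.76, below every LC cancer and overlapping the OR cancers. Lamb2 differed by -0.47 between OP and the other cancers (interval -0.92 to -0.02, adjusted p = 0.428), Itgb4 by -0.39 (interval -0.96 to 0.18, adjusted p = 0.6) and Itga7 by 0.56 (interval -0.19 to 1.31, adjusted p = 0.569). None of these passed the adjustment, which does not show that the groups are alike.

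Normal tissue was compared in the same way in 8 arrays. OP against the mean of OR and LC gave 0 members and 0 genes called by limma, and 1 member, Itgb6, at an unadjusted p under 0.05, against 2.18% of all genes. Itgb6 levels were 10.67, 10.99 and 11.42 in OP, 11.30 and 10.93 in OR, and 8.20, 9.73 and 8.61 in LC normal tissue. The OP and OR tissues lay together and all 3 LC tissues lay below them, so the levels followed the diet labels. Contrasts of high-fat (OP and OR) with low-fat (LC) tissue were therefore added after the data were seen, and they describe that pattern and give no independent support for it.

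In normal tissue the high-fat minus low-fat difference was 2.22 for Itgb6 (SE 0.367, limma adjusted p = 0.1), 1.0 for Fmod (SE 0.174, adjusted p = 0.106) and 0.70 for Lama3 (SE 0.135, adjusted p = 0.12). Lama3 was 7.69 to 8.37 in the OP and OR tissues and 7.42, 7.57 and 7.37 in LC tissue. Fmod was 13.61 to 14.34 against 13.07, 13.32 and 12.82. Neither overlapped, but the share of all genes without overlap in this split was not counted, so this does not set them apart. Itgb4 was 14.84 to 15.31 against 14.55, 13.27 and 13.32, a difference of 1.45 (SE 0.316, adjusted p = 0.147). No member and no gene was called, and 7 members had an unadjusted p under 0.05, against 12.1% of all genes. Dcn differed by -0.55 (adjusted p = 0.542) and Itgad by -0.55 (adjusted p = 0.441).

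Marker levels of the same tissues are given beside these genes. The mean log2 level of the 11 luminal genes was 9.58, 11.40 and 10.16 in LC normal tissue and 11.31 to 11.60 in OP and OR normal tissue, and that of 7 myoepithelial and basal genes was 9.98, 10.86 and 9.49 against 10.81 to 11.24. LC normals 1 and 3 were below the OP and OR ranges for both epithelial lists, and LC normal 2 was inside them. Itgb6, Itgb4 and Lama3 levels of all 3 LC normal tissues were below every OP and OR normal tissue. The mean of 8 macrophage genes was 13.71, 13.17 and 13.33 in LC normal tissue and 12.27 to 13.10 in OP and OR normal tissue, with no overlap. The mean of 10 T and NK cell genes was 7.79, 8.32 and 11.23 against 7.85 to 8.36. The part of epithelial and immune cell content in these differences was not tested. The result also rests on single arrays: without LC normal 1, 9 members were called, against 5.46% of all genes, and they were higher in high-fat tissue (Adamts5, Bgn, Col5a1, Col5a3, Fbn1, Itga1, Itgb4, Itgb6 and Lamb2), and without LC normal 2 only Itgb6 was, against 0.322% of all genes, with a difference of 2.66 (limma adjusted p = 0.0373).

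**Figure D4:**
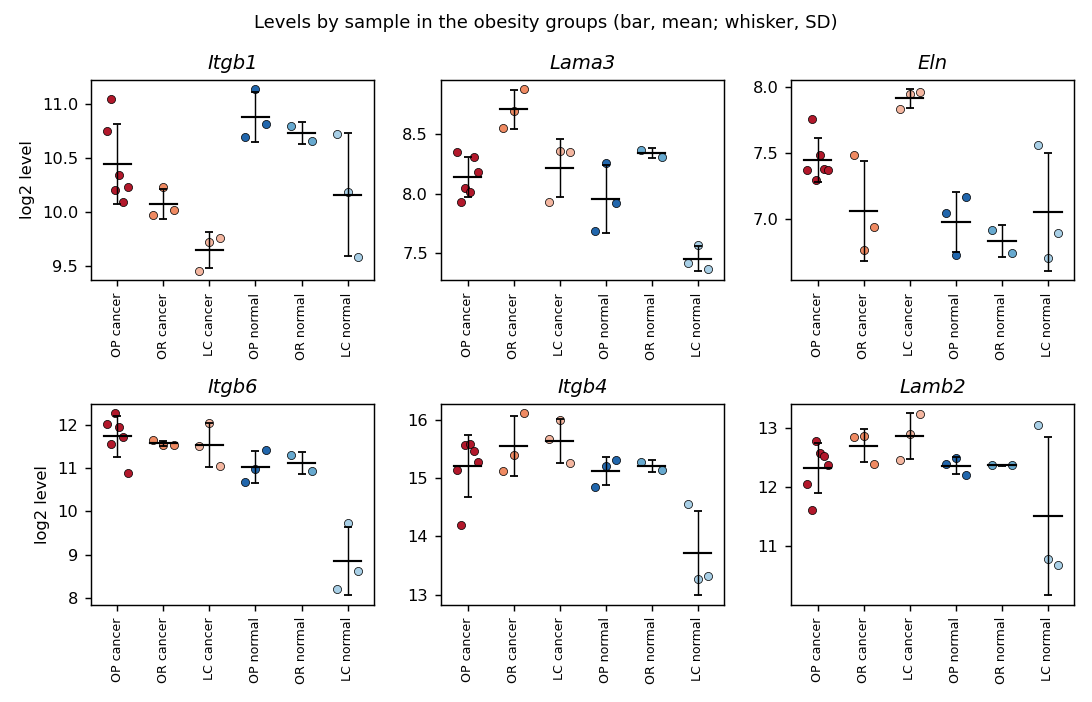
Log2 levels on each array for Itgb1, Lama3, Eln, Itgb6, Itgb4 and Lamb2 in the 6 groups (bar, group mean; whisker, SD). LC cancers lie below OP cancers for Itgb1, and the 3 LC normal tissues lie below the other normal tissues for Itgb6, Itgb4 and Lama3; none of these differences passed the adjusted threshold on all arrays.

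In the cancers, high-fat minus low-fat cancers gave 0.12 for Itgb6 (interval -0.46 to 0.70, limma adjusted p = 0.986) and 0 members called, with 2 members at an unadjusted p under 0.05 (Eln at -0.66 and Itgb1 at 0.62), against 4.07% of all genes. The interaction of tissue and diet, which tests whether the diet difference in the cancers differs from that in normal tissue, called 41 genes (0.114%) and no member. Itgb6 had the smallest p of the members, with -2.10 (SE 0.453, adjusted p = 0.0859), followed by Itgb4 at -1.71 (adjusted p = 0.171) and Adamts1 at -1.19 (adjusted p = 0.209). At an unadjusted p under 0.05 there were 6 members, against 10.2% of all genes. Without LC normal 1 the interaction called 4 members (Itgb3bp, Itgb4, Itgb6 and Lamb2), against 4.08% of all genes. The interaction of tissue and obesity called no member and no gene, with 2 members at an unadjusted p under 0.05 (Itgb4 at -1.05 and Lama3 at -0.38), against 4.29% of all genes.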

How the data were processed

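Total RNA from 12 carcinomas and 8 normal mammary tissues was hybridised to single-colour Agilent Whole Rat Genome arrays. The deposited files hold spot intensity from Agilent Feature Extraction (version 10.7.3.1 per the submitters' processing notes, 9.5.1.1 per the file headers), with flags per spot; the normalization named in the series' description is Robust Multi-array Average. The authors' value table holds log2 values centred per probe, which for 20793 of its 20824 probes follow the processed signal scaled to each array's 75th percentile (correlation 0.9997); it serves as an alternative here.

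From the deposited intensity, the median spot signal (the mean signal is not used here) was corrected with normexp (offset 50), quantile-normalized and put on a log2 scale (limma 3.58.1, R 4.3.3). Probes with an outlier flag were left out (115), as were 825 that were not well above background on a share of 0.5 of the arrays of any group. The brightest probe stood for each gene, and 8 members have 2 probes; 10835 probes could be named through their accession. limma's moderated test was fitted with lmFit and eBayes to 6 group means over 20 arrays, or to the cancers or normal tissues alone, and p-values were adjusted by Benjamini-Hochberg over all 36043 genes tested. The method was run on simulated arrays with few changed genes and independent noise. A log2 change of 1 was recovered for 85% of changed genes between cancers and normal tissue. For OP against the other groups it was 81% in cancers and 63% in normal tissue. False calls made up 3.7, 5.82 and 4.97% of calls in these 3 comparisons. The simulation holds no slide effects and far fewer changed genes than the data, so it does not give the error rate here. The members and lists were chosen with earlier results of these data known. Members are named by role group: those called with the largest differences, a set of standard matrix genes, and between obesity groups the 3 smallest p in each direction. Alternatives were other scalings, filters and probe rules, slide, scan day or replicate number as a block, and leaving out each array; the high-fat contrasts and leaving out slide 4 were added after the data were seen.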

Additional observations from a re-analysis of the deposited data

Results flagged for a closer look

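In the 6 OP cancers, the sample farthest from the rest was set against the range of the group (Dixon's test, critical ratio 0.625) for each of the 34 members; chance marks about 1 in 20 groups. The 5 results so marked come from 2 arrays. OP cancer 6 was high for Sparc (17.06, next 15.82), Itgal (8.64, next 7.17) and Itgam (8.34, next 7.37), and it is also the cancer with the highest skeletal muscle, fibroblast, macrophage and T and NK cell means. OP cancer 2 was low for Itgb4 (14.19, next 15.14) and high for Itgae (6.78, next 6.63), a probe near background. Sparc fell in the cancers with OP cancer 6 left out as well: its differences over the 20 fits that left out 1 array were -1.85 to -1.53.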

How the results depend on the processing

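Leaving out each array in turn gave 22 to 27 members called between cancers and normal tissue, 10 to 19 within OP (16 on all arrays), 1 to 6 within OR (9) and 14 to 18 within LC (17). The OR count was 15 under both scalings to the 75th percentile and 5 with slide as a block. Without slide 4, 1 member (Itgb1) was called in OP against OR, OP against LC and OP against both. Leaving out each array gave 0 to 9 members in the diet contrast of normal tissue and 0 to 4 in the interaction of tissue and diet. Signs turned under the processed and the normexp 75th-percentile scalings for Eln (-0.60, -0.41, and -0.58 in the authors' table), Itgal (-0.26, -0.33), Itgam (-1.56, -0.88), Itgb3 (-1.65, -0.65) and Thbs1 (-1.11, -0.67). These lie near the bottom of the scale, and the median of all genes also moved (-1.51, -0.80). Under both scalings Adamtsl4, Bgn, Col23a1, Itgad, Itgam and Lamb2 gained a call, and Itgal, Itgb1 and Lama3 lost theirs. Col5a1 lost its call under the processed scaling (limma adjusted p = 0.0533) and kept it under the normexp scaling (0.0342). Slides 2 and 3 hold 1 cancer each. Within slide 2 signs turned for Itga1 (0.18), Itgb1 (0.35), Itgb4 (-0.40), Lama3 (-0.14) and the uncalled Adamts7 (0.01) and Lamb2 (-0.28). Lamb2 turned within slide 1 as well (-0.47). The cause was not tested. Levels gave no sign that replicate numbers pair the samples. Over 40 pairs of the same number the median correlation of deviations was -0.05, and 2 of 20 arrays were closest to an array of their own number. Such correlations cannot exclude that samples of the same number come from the same rat. With the replicate block 27 members were called between cancers and normal tissue, and no count moved by over 1.5 times. Signal over background limits Itgae, Itgb3 and Itgam.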
